A study of Sorghum bicolor with 12 samples.

Results

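The mRNAs described here are those that were less abundant in sulfur-deficient than in control shoots of BTx623, an inbred line of sorghum (Sorghum bicolor). They were chosen from the RNA-seq counts themselves, so their difference in mRNA is the criterion and not a finding. With CPM as the count scaled by its library total, a transcript was taken where its mean in the 3 control shoots was at least 5 CPM, its mean in the 3 deficient shoots was lower by a factor of at least 1.5, and every deficient shoot lay below every control shoot. The rule found 87 members among 34210 transcripts in the table and 14294 at or above the level floor, or 0.609% of those at the floor. The mirrored rule, with deficient shoots higher, found 83.

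The shoots of sulfur-deficient seedlings had been grown for 8 days on nutrient solution with 10 µM sulfate, per the sample titles and growth protocol, and those of control seedlings on 500 µM. The series' design text gives 0 µM for the deficient solution. All seedlings were first germinated for 5 days and harvested 13 days after sowing. Each group had 3 whole shoots, described as biological replicates, and the powder of each shoot supplied 1 RNA-seq and 1 ribosome profiling library. A whole shoot mixes leaf blade, sheath and stem tissues, so fewer cells of a type and less mRNA per cell cannot be told apart.

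Plants take up sulfur as sulfate and reduce it to make cysteine, from which methionine and glutathione are built. Plants short of sulfate are known to raise transcripts for sulfate uptake and to save sulfur, with slower growth and paler leaves. Ribosome profiling sequences the short mRNA fragments that ribosomes shield from nuclease, so footprint counts on a coding sequence follow both how much mRNA there is and how many ribosomes it carries.

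The deposited tables pair no transcript ID with a gene name, and none of the IDs (0) matched the reference gene table. No role can therefore be given to any member, no pathway list could be counted, and the shoot label was not checked against marker genes. Members are called by their IDs, whose first number is the chromosome, and by coding length. Counts that near-identical copies could share are uncertain, since the handling of reads with several matches is not given. Of the members described by ID, Sobic.006G007300.1 (the lowest ratio) and Sobic.010G240400.1 (the highest control level) followed from a rule, and the other 9 were chosen after their values were seen.

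Totals were 13995665 to 18475153 counts per RNA library and 6328659 to 11066815 per footprint library. Deficient shoot 1 stood apart from deficient shoots 2 and 3 in RNA: the chi-square statistic per degree of freedom against them was 9.96 and 9.93, against 2.70 between shoots 2 and 3. In footprints it did not, with 12.1 and 10.3 against 18.8 between shoots 2 and 3. Control shoot 3 stood apart from control shoots 1 and 2 in both assays. In RNA the statistic was 5.97 and 8.81, against 2.81 between control shoots 1 and 2. In footprints it was 11.9 and 11.9, against 5.44. Where deficient shoot 1 was left out of a fit or count, the values with and without it are given.

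Most members were moderately lower in the deficient shoots. The ratio of the deficient to the control mean in mRNA ran from 0.292 to 0.666, with a median of 0.584 and quartiles of 0.506 and 0.644. In 20 of 87 members the ratio was 0.5 or less, and in 3 members it was 0.316 or less. The lowest mRNA count of a member in any library was 17 reads, and the lowest in a control library was 58.

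Members occurred at all levels above the floor, and a larger share of them than of all floor transcripts lay close to it. The median control mean was 11.9 CPM for members and 25.3 CPM for all transcripts at or above the floor. There were 36 members from 5 to 10 CPM, or 41.4%, where 19.8% of all floor transcripts lay. A further 29 stood from 10 to 30 CPM, or 33.3%, beside 36.3% of all floor transcripts. From 30 to 100 CPM there were 10 members, or 11.5%, beside 31.5%. At 100 CPM or more there were 12, or 13.8%, beside 12.4%. CPM is a share of library counts, not a level per length.

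Together the members took 2993, 1932 and 1596 CPM of mRNA in deficient shoots 1, 2 and 3, and 3604, 4561 and 3939 CPM in control shoots 1, 2 and 3. Their summed footprints were 3010, 1983 and 2083 CPM in the deficient shoots, against 3358, 4099 and 4348 CPM in the control shoots. A single member with little mRNA, Sobic.008G120266.1, gave 199.8, 134 and 399.9 CPM of these in the deficient shoots and 221, 193 and 436 CPM in the control shoots. Deficient shoot 1 lay nearest to the controls in both assays. The 5 most abundant members held 45.5% of the control mRNA sum, and without them the remaining 82 summed to 1516, 1027 and 900 CPM in deficient shoots and to 1983, 2476 and 2134 CPM in control shoots.

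The position of deficient shoot 1 was shared by many members. Relative to the mean of the control shoots, the median member stood at -0.47, -0.83 and -0.98 on the log2 scale of mRNA in deficient shoots 1, 2 and 3. In footprints the medians of the 82 members that passed the low-count filter were -0.33, -0.78 and -0.93. Shoot 1 was the highest of the 3 deficient shoots for 70 of 87 members in mRNA, or 80.5%, beside 40.3% of all floor transcripts. It was the highest for 53 of 82 in footprints, or 64.6%, beside 28.7%. In 47 of 87 members its mRNA log2 difference from the control mean was less than 0.5 times that of shoots 2 and 3, and in footprints this held for 48 of 82. The rule used the mRNA values and not the footprints, so the mRNA counts and shares only describe the chosen set.

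**Figure D1:**
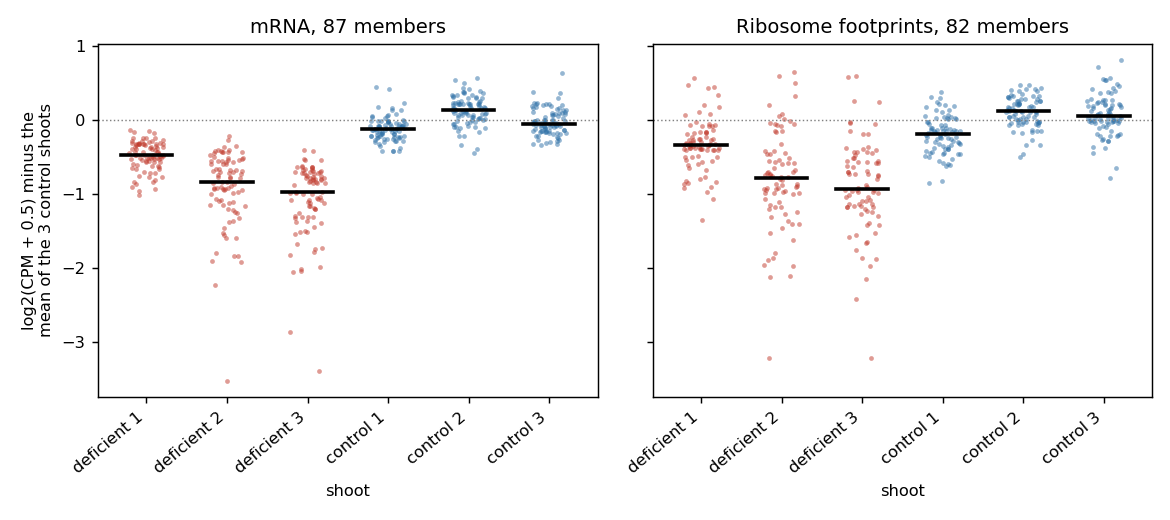
Each point is 1 member in 1 shoot, as log2(CPM + 0.5) minus the mean of the 3 control shoots, for mRNA (left, 87 members) and footprints (right, 82 members that passed the filter), and black bars are medians. Deficient shoot 1 has medians of -0.47 and -0.33, above those of deficient shoots 2 and 3 in both panels.

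The control shoots differed among themselves as well. Control shoot 2 was the highest of its group for 55 of 87 members in mRNA, or 63.2%, beside 41.7% of floor transcripts, and for 39 of 82 in footprints, or 47.6%, beside 28.4%. Control shoot 1 was the lowest for 52 of 82 in footprints, or 63.4%, beside 31.6%. The median coefficient of variation in mRNA was 24.0% among deficient and 15.6% among control shoots for members, and 6.97% and 7.24% for all floor transcripts. In footprints it was 37.4% among deficient and 21.2% among control shoots for members, against 14.5% and 12.3%. Members were less abundant than other floor transcripts, and the part of that in their spread was not tested. The mRNA ranks and spreads of members also come from values that the rule used.

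The 2 lowest ratios belonged to a pair of neighbours in ID order on chromosome 6. Sobic.006G007300.1, with a coding length of 279 bases, had 74.2, 8.61 and 9.50 CPM of mRNA in deficient shoots 1 to 3, and 123, 90.6 and 102 CPM in control shoots 1 to 3. Deficient shoots 2 and 3 were thus far below every other shoot, and shoot 1 lay nearer to the lowest control than to them. Its footprints followed the same order, at 89.6, 11.8 and 11.8 CPM in deficient shoots and 140, 90.5 and 117 CPM in control shoots.

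For Sobic.006G007300.1 the fitted footprint log2 fold change was -1.65 (SE 0.773, edgeR adjusted p = 0.744), a difference within the spread of the deficient shoots. Without deficient shoot 1 it was -3.29 (edgeR adjusted p = 0.000112), and without deficient shoot 2 or 3 it was -1.21 in both cases (edgeR adjusted p = 0.995 and 0.472). Its groups did not overlap in footprints, by a margin of 89.6 against 90.5 CPM.

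Sobic.006G007100.1, the transcript just before it in the table, has a coding length of 1146 bases. It had 67.8, 25.3 and 16.1 CPM of mRNA in deficient shoots and 123, 95.8 and 149.5 CPM in control shoots. Its footprints were 132, 46.7 and 32.3 CPM in deficient shoots, against 208, 124 and 206 CPM in control shoots. Both transcripts of the pair thus had a deficient shoot 1 near the controls, and here its footprints overlapped them. Its log2 fold change in footprints was -1.36 (SE 0.429, edgeR adjusted p = 0.603), and -2.18 without deficient shoot 1 (edgeR adjusted p = 0.0105). It was -1.14 without deficient shoot 2 and -1.01 without deficient shoot 3 (edgeR adjusted p = 0.995 and 0.380).

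Sobic.003G422200.1 on chromosome 3, of 1011 coding bases, had a ratio of 0.316, next after this pair. Its mRNA was 8.85, 4.55 and 3.86 CPM in deficient shoots and 14.9, 25.2 and 14.5 CPM in control shoots. Its footprints were 9.18, 3.37 and 3.77 CPM in deficient shoots, against 10.6, 22.7 and 17.7 CPM in control shoots, and the groups did not overlap in either assay. Its footprint log2 fold change, -1.69 with an SE of 0.380, was the lowest of all tested members and missed the threshold (edgeR adjusted p = 0.233). It passed with DESeq2 (adjusted p = 0.0026) and without deficient shoot 1 (edgeR adjusted p = 0.0306). With any other shoot left out, the edgeR adjusted p was 0.173 or more.

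A second member, Sobic.003G421700.1 of 999 coding bases, lies 5 steps before it in ID order. Its mRNA was 208, 186 and 128 CPM in deficient shoots and 251, 346 and 297 CPM in control shoots. Its footprints, at 222, 214 and 142 CPM in deficient shoots and 216, 332 and 355 CPM in control shoots, overlapped between groups. In footprints the log2 fold change was -0.64 (SE 0.215, edgeR adjusted p = 0.645).

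Sobic.010G240400.1 on chromosome 10, of 393 coding bases, was the member with the highest control level and held 15.8% of the members' control mRNA. It had 565, 216 and 160 CPM of mRNA in deficient shoots and 567, 712 and 635 CPM in control shoots. Deficient shoot 1, at 565.4 CPM, was next to the lowest control at 566.6 CPM, the narrowest gap between groups relative to the level among the members. In footprints it had 300.4, 166 and 97.4 CPM in deficient shoots and 324, 369 and 384 CPM in control shoots, again with shoot 1 next to the controls. The footprint log2 fold change was -0.94 (SE 0.314, edgeR adjusted p = 0.645), and -1.44 without deficient shoot 1 (edgeR adjusted p = 0.0316). Without deficient shoot 3 it was -0.62 (edgeR adjusted p = 0.374).

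The transcript just before it, Sobic.010G240300.1 of 1527 coding bases, was a member too. Its mRNA stood at 7.08, 3.03 and 2.07 CPM in deficient shoots and at 8.10, 8.51 and 9.23 CPM in control shoots, with the same order of the deficient shoots. Its footprints were only 5, 2 and 4 counts in deficient libraries and 10, 17 and 14 counts in control libraries, too few to pass the filter.

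These were 2 of 5 pairs of members within 10 steps of each other in ID order, and the 2 whose members were directly adjacent. The others lay 5 steps apart on chromosome 3, 8 on chromosome 1 and 9 on chromosome 10. Members came from all 10 chromosomes. Their share of the floor transcripts ran from 0.344% on chromosome 4 (6 of 1743) to 1.05% on chromosome 10 (12 of 1143), with 0.609% over all. Of the 8 members on chromosome 6, 5 lay in a stretch of 66 consecutive transcripts, 26 of them at or above the floor. The stretch was delimited after its members were seen.

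**Figure D2:**
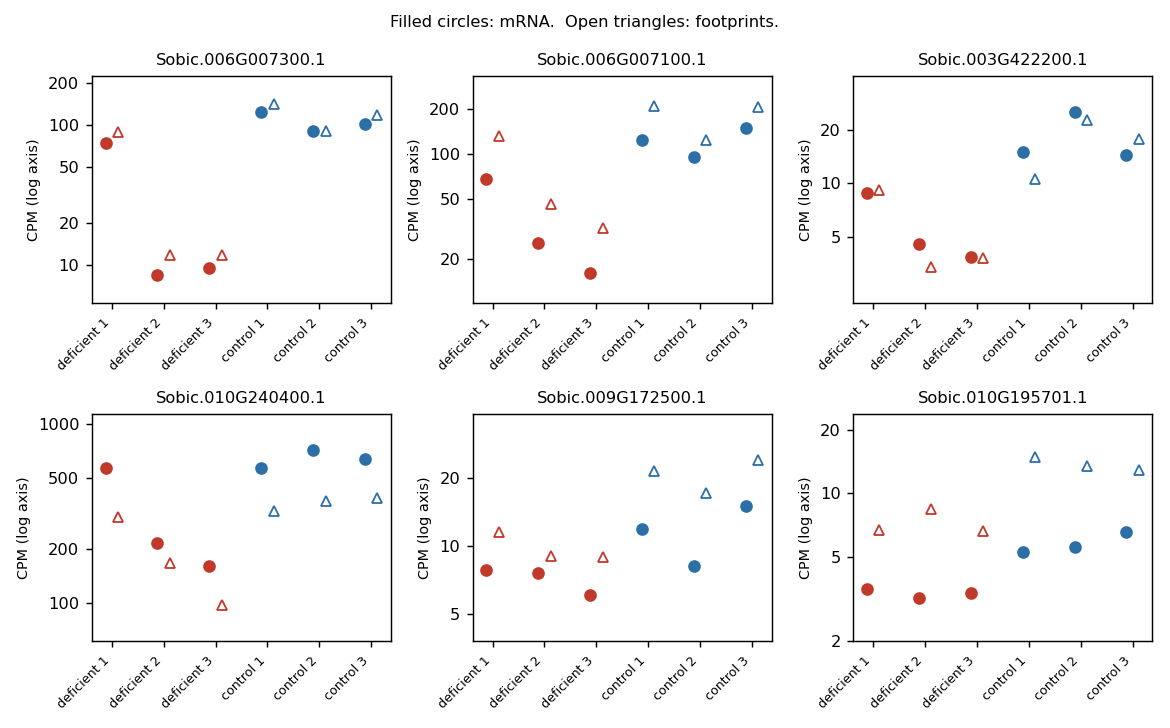
CPM on a log axis in each shoot for 6 members, with mRNA as filled circles and footprints as open triangles, deficient shoots in red and control shoots in blue. Deficient shoot 1 is near the controls in Sobic.006G007300.1 and Sobic.010G240400.1, while the 3 deficient shoots lie close together in Sobic.009G172500.1 and Sobic.010G195701.1.

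The next question was whether footprints, which the rule did not use, were lower on the same transcripts. Both libraries of a shoot were made from the same powder, so what is particular to a shoot enters both. All 87 members were in the footprint table and 82 passed the filter on low counts. Of these, 78 had a log2 fold change below 0, where 49.8% of all 16514 transcripts tested did. Their median was -0.69, with quartiles of -0.998 and -0.38, beside a median of 0.00 over all tested. In 51 of 82 the footprints were lower by at least 1.5-fold, beside 2.98% of all tested, and in 21 by more than 2-fold, beside 0.696%. Since a member could pass the filter through the control shoots alone, these counts describe the members that passed.

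No single member passed the threshold in footprints. With edgeR's quasi-likelihood test and adjustment over all 16514 transcripts, 0 of 82 members were called lower, and 2 transcripts in all were, or 0.0121%. At an unadjusted p under 0.05, 50 of 82 members were lower, or 61.0%, and 0 were higher, beside 2.59% lower among all tested. DESeq2 called 6 of 86, beside 0.0782% of all it tested. Without deficient shoot 1, edgeR called 11 of 86 lower, beside 0.124% of all, and 56 at an unadjusted p under 0.05, beside 3.18%. Without control shoot 2, 32 members were lower at an unadjusted p under 0.05, beside 0.979% of all. For a member's footprint log2 fold change, the 95% interval reached a median of 0.628 to either side, nearly as large as the median difference.

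The deficient shoots all lay below the control shoots in footprints for 34 of the 82 members tested, or 41.5%, beside 4.97% of all tested, and all above them for 0 members, beside 5.89%. Counting the 5 members that failed the filter, it was 36 of 87. Without deficient shoot 1 it was 58 of 82, beside 10.1% of all tested. Without control shoot 1 it was 55 of 82, beside 9.78%.

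The member nearest to the threshold was Sobic.009G172500.1 on chromosome 9, of 1440 coding bases. Its footprints were 11.5, 9.03 and 8.91 CPM in deficient shoots and 21.4, 17.2 and 24.0 CPM in control shoots, or 9.80 ± 1.45 against 20.9 ± 3.44 CPM (SD, n = 3 shoots each). Its mRNA was 7.84, 7.58 and 6.07 CPM in deficient shoots, against 11.9, 8.17 and 14.98 CPM in control shoots. The 3 deficient shoots lay close together in both assays. Fitted over all shoots, the footprint difference was -1.09 on the log2 scale (SE 0.186, edgeR adjusted p = 0.0527). It passed with DESeq2 (adjusted p = 0.00165), with no filter (edgeR adjusted p = 0.00659) and without deficient shoot 1 (edgeR adjusted p = 0.0485). It also passed with a batch term for the shoots numbered 7 and 9 in their descriptions, a grouping that no label gives (edgeR adjusted p = 0.0311). It did not pass with any other single shoot left out (edgeR adjusted p = 0.116 to 0.309) or without the shoots numbered 7 and 9 (edgeR adjusted p = 0.0812). No member, this one included, passed with relative log expression scaling factors, with a mean count of at least 50 in either group, or with the replicate number as a block.

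Sobic.010G195701.1 on chromosome 10, of 570 coding bases, showed tight groups in both assays. Its footprints were 6.72, 8.42 and 6.65 CPM in deficient shoots and 14.8, 13.4 and 12.9 CPM in control shoots. Its mRNA was 3.54, 3.19 and 3.36 CPM in deficient shoots and 5.26, 5.56 and 6.54 CPM in control shoots. Its footprint difference was -0.91 on the log2 scale (SE 0.177, edgeR adjusted p = 0.112), and DESeq2 called it (adjusted p = 0.0473). With 1 shoot left out the edgeR adjusted p was 0.168 to 0.559.

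Sobic.010G267400.1, also on chromosome 10 and of 2424 coding bases, had the most footprints of any member. These were 504, 333 and 428 CPM in deficient shoots and 591, 714 and 687 CPM in control shoots, without overlap. Its mRNA was 357, 296 and 259 CPM in deficient shoots and 428, 544 and 436 CPM in control shoots. This was a footprint difference of -0.65 on the log2 scale (SE 0.166, edgeR adjusted p = 0.368).

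Across the 82 members, footprint log2 fold changes followed the mRNA log2 ratios with Pearson's r of 0.562 and Spearman's rho of 0.548. These are descriptions over transcripts that share the same 12 libraries. The rule cut the range of the mRNA ratios, and the correlations were not computed without deficient shoot 1. In 4 of the 82, footprint fold changes lay above 0, from 0.02 to 0.28 on the log2 scale, with an unadjusted p of 0.375 or more in edgeR's test.

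**Figure D3:**
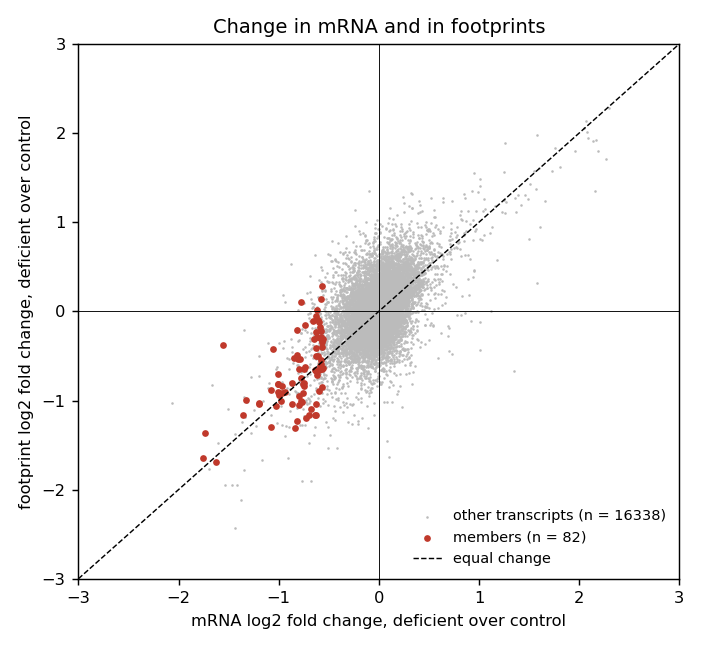
Footprint against mRNA log2 fold change, deficient over control, from the edgeR fits, for 82 members (red) and 16338 other transcripts tested in both assays (grey), of which 12 lie outside the axes. Members sit left of 0 in mRNA by the rule, and 78 of the 82 also lie below 0 in footprints.

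The ratio of footprints to mRNA was then compared. Members were chosen for low mRNA in deficient shoots and the same mRNA values stand in the denominator. The choice itself thus tends to raise this ratio in deficient shoots. The ratio is therefore described, with its intervals, and not tested. Its change had a median of 0.10 on the log2 scale, with quartiles of -0.09 and 0.30, beside 0.01 for all 16420 transcripts with both assays. It was above 0 for 51 of 82 members, a larger share than the 51.0% of all these transcripts. The 95% interval lay wholly above 0 for 2 members, beside 1.39% of all, and wholly below 0 for 0, beside 1.07%. With the shoot as a block, which takes account of the shared powder, it lay wholly above 0 for 8 of 82 members, beside 2.22%, and wholly below 0 for 1, beside 1.31%. For 36 of the 82 the whole interval lay within a 2-fold change either way, and the median half-width was 0.828. For Sobic.009G172500.1 the change was -0.42 (95% interval -1.07 to 0.23), and for Sobic.006G007300.1 it was 0.09 (-2.73 to 2.92).

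In the control shoots the members carried footprints much as other transcripts did. Over the 14285 floor transcripts in the footprint table, the median log2 ratio of footprint to mRNA CPM was -0.32 for members and -0.38 for all. The 5th and 95th percentiles were -2.10 and 0.94 for members, against -2.73 and 0.86 for floor transcripts. A log2 ratio below -1 was found in 17 of 87 members, or 19.5%, against 28.3% of floor transcripts, and one above 1 in 4 members, or 4.60%, against 3.09%.

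A pair of members stood at the ends of this range. Sobic.002G163950.1 on chromosome 2, of 732 coding bases, had 3.79, 3.57 and 2.79 CPM of mRNA in deficient shoots and 5.12, 5.29 and 4.95 CPM in control shoots. It had 0 footprints in every library, which allows up to 3 counts per library for counting error only. That is 0.271 to 0.474 CPM by the library total without TMM scaling. Sobic.008G120266.1 on chromosome 8, of 360 coding bases, had only 3.54, 3.52 and 1.86 CPM of mRNA in deficient shoots and 7.39, 4.49 and 4.40 CPM in control shoots. Its footprints were 199.8, 134 and 399.9 CPM in deficient shoots and 221, 193 and 436 CPM in control shoots, a log2 ratio to mRNA of 5.53 in the controls. Its footprint groups overlapped widely, and the log2 difference was -0.21 (SE 0.387, edgeR adjusted p = 0.928).

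Coding lengths were close to those of other transcripts. Members ran from 240 to 4362 bases, with a median of 1308, against a median of 1227 for floor transcripts. Members under 600 bases numbered 16 of 87, or 18.4%, beside 15.8%, and those of 2400 bases or more numbered 13, or 14.9%, beside 12.8%. Among the 12 members at 100 CPM or more, 5 were under 600 bases and 6 had a ratio of 0.5 or less. Across the members, Spearman's rho between coding length and the mRNA ratio was 0.243, and between control level and that ratio it was -0.207.

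**Figure D4:**
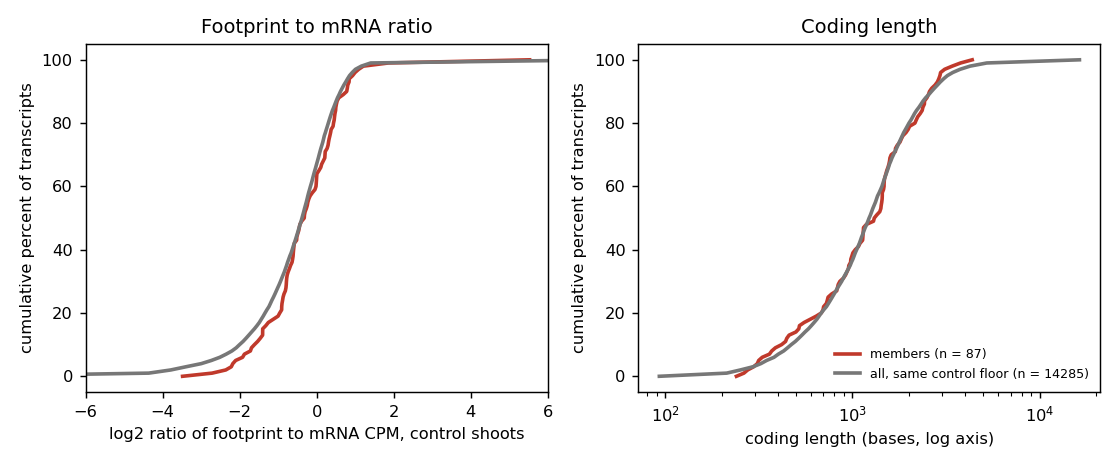
Cumulative percent of transcripts by log2 ratio of footprint to mRNA CPM in control shoots (left) and by coding length in bases on a log axis (right), for 87 members (red) and all 14285 floor transcripts in the footprint table (grey), members included. The curves run close together, with medians of -0.32 and -0.38 for the ratio and of 1308 and 1227 bases for the length.

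The set depended on the shoots: the rule found 314 transcripts without deficient shoot 1, 152 without control shoot 1 and 172 without control shoot 3. The lowest control mean of a member was 5.03 CPM, and the highest of a transcript left out by the floor alone was 4.91 CPM, among 516 that met the other criteria. The highest ratio of a member was 0.666, and the lowest of a transcript left out by the fold alone was 0.669, among 1460. A further 89 transcripts met the floor and the fold and had groups that overlapped. The nearest of them had a highest deficient value of 7.96 CPM and a lowest control value of 7.89 CPM. An edgeR fit to the same RNA counts called 8 of the 87 members lower at an adjusted p under 0.05, and 0.0698% of all transcripts tested. That fit uses the contrast of the rule, so the count is given as a description.

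The samples also carry description numbers, 9, 13 and 15 for deficient shoots 1 to 3 and 3, 1 and 7 for control shoots 1 to 3, and their meaning is not given. Set against number 7 alone, number 9 (deficient shoot 1) was lower in footprints for 72 of 82 members, where 51.6% of floor transcripts were lower, with a median log2 difference of -0.36. Between numbers 13 and 15 and numbers 1 and 3 the median was -0.85. In mRNA these medians were -0.46 and -0.88, and the rule itself puts both below 0. With numbers 7 and 9 as a batch term, a grouping that no label gives, edgeR called 1 of 82 members lower in footprints, beside 0.0242% of all tested. Without these shoots it called 5 of 83, beside 0.0894% of all tested.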

How the data were processed

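RNA-seq and ribosome profiling of 6 shoots gave 12 libraries. The authors deposited raw counts per transcript without normalization: RNA reads for 34210 transcripts, and footprint P sites summed over the coding sequence, with the coding length, for 34026. The other 184 transcripts held 0.0328% of the RNA counts. The submitters' processing notes name Bowtie2 and STAR, without roles or versions. For the counting program, build and annotation, none is given in the sources used here.

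Members and lists were chosen with earlier results of these data known. Footprint counts went into edgeR 4.0.16 under R 4.3.3 (TMM factors, filterByExpr with a minimum count of 10 and total of 15, robust quasi-likelihood, Benjamini-Hochberg threshold 0.05), with treatment as the only term, over all transcripts. The fit was run on simulated counts, to check that it recovered the sign of large changes. These counts were drawn independently for each transcript, so a shoot that departs in many transcripts together was not simulated. mRNA CPM uses the library total and footprint CPM the TMM-scaled total. Ratios of footprint to mRNA CPM per shoot use TMM-scaled totals for both. The ratio of footprints to mRNA came from the interaction of assay and treatment over 12 libraries, and levels per shoot used a pseudocount of 0.5 CPM. Alternatives were DESeq2 1.42.0, other scalings, filters and blocks, and left-out shoots.

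Per the labels each shoot's RNA and footprint libraries share 1 powder, and their deviations from group means correlated at 0.102 to 0.521. Within groups the chi-square statistic per degree of freedom between libraries was 2.70 to 18.8, so each counted as a separate sample. The naming rule, with no ID matched to a description, gave the member with the lowest ratio and the one with the highest control level. Lists built on product descriptions were not used for the same reason. P-values weigh the difference between treatments against a spread estimated from these shoots, with information shared across transcripts.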

Additional observations from a re-analysis of the deposited data

How the results depend on the processing

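The set of members depended on the shoots and thresholds. The rule found 243 with a control floor of 1 CPM, 51 with 10 CPM, 20 with a 2-fold difference, and 68 to 314 with 1 shoot left out, the most without deficient shoot 1, when 79 of the 87 remained. Without control shoot 1 it found 152 and without control shoot 3 it found 172. With TMM-scaled CPM, 72 of the 87 remained. Footprint calls among members (0 in edgeR) were 6 with DESeq2, 1 with unscaled totals, 1 with no filter, 1 with the batch term for numbers 7 and 9, 3 with a spread shared over 12 libraries, and 0 to 11 with 1 shoot left out. Members lower at an unadjusted p under 0.05 (50) were 32 to 56 with 1 shoot left out, the fewest without control shoot 2, and 41 to 53 otherwise, a count added after seeing the data, as was the 0.5 CPM setting below. Members with footprint groups apart (36) were 47 with unscaled CPM and 37 to 60 with 1 shoot left out. The count was 60 without deficient shoot 1 and 59 without control shoot 1. Leaving out the shoots numbered 7 and 9, chosen after seeing the data, gave 375 by the rule, 66 with groups apart and 5 calls. Fewer shoots make groups easier to separate by construction, and in the remaining cases the cause was not tested. The median footprint log2 fold change stayed from -0.98 to -0.61 in all 15 alternatives. The median change of the ratio was 0.12 with the shoot block (intervals wholly above 0 for 8 members and below for 1, against 2 and 0), 0.11, 0.12 and 0.13 per shoot at pseudocounts of 0.1, 0.5 and 2 CPM, and 0.0648 to 0.130 with 1 shoot left out. Among named members Sobic.008G120266.1 changed sign, with a footprint log2 fold change of 0.37 without numbers 7 and 9 and -0.76 to 0.24 with 1 shoot left out. The replicate numbers shared across treatments showed no clear pairing of the shoots (their deviations from group means correlated at -0.14, 0.157 and -0.0571 for RNA, and at -0.0172, -0.024 and 0.116 for footprints). With 3 shoots per group, these values cannot settle whether the shoots were paired. Some shoots correlated more with another number. Under the replicate block, 0 members were called and 50 were lower at an unadjusted p under 0.05. Counts of a few footprints limit 5 members, which no test at the main filter reached.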
